A study of Rattus with 4 samples.

Results

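The splicing kinase genes Clk1, Clk2, Clk3, Clk4, Srpk1, Srpk2 and Prpf4b were examined for RNA recovered with RBM25, a splicing factor associated with the U1 snRNP, in H9C2 cells, a myoblast line from embryonic rat heart. The 7 genes were chosen by name, and their peaks by the gene that the deposited annotation gives to each peak. They held 7 of 2696 peaks in the peak list of RBM25 immunoprecipitate (IP) replicate 1 and 14 of 8108 in that of replicate 2. The study has 4 samples, 2 RBM25 IPs and 2 inputs, all from H9C2 cells irradiated with ultraviolet light at 400 mJ/cm2. The labels of these samples give a cell line and a fraction, with no transfection or added gene, and do not say whether the replicates were separate cultures. The inputs were not analysed here, so no peak is set against the RNA level of its gene.

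CLK kinases are nuclear dual-specificity kinases that phosphorylate the arginine-serine domains of SR proteins and release them from nuclear speckles. SRPK kinases phosphorylate the same domains, largely in the cytoplasm, and so promote import of SR proteins into the nucleus. PRP4 kinase, the product of Prpf4b, phosphorylates proteins of the spliceosome itself. Transcripts of CLK genes are known to be held in the nucleus with introns retained around an alternative exon, which makes these introns a place to look for a bound splicing factor.

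The deposited lists gave no peak to Clk1, Clk3 or Clk4, and no CLK gene had a sense peak in either list. Retained introns of CLK genes therefore held no sense peak. The SRPK genes held 7 peaks in replicate 1 and 5 in replicate 2, Prpf4b held 8 in replicate 2 alone, and Clk2 held 1, in replicate 2. Only Srpk2 had peaks at the same position in both lists, so 1 of 7 genes held a shared peak. Among 23154 protein-coding symbols of the RefSeq name table, replicate 1 gave a peak to 3.68%, replicate 2 to 7.25% and both lists a shared peak to 2.62%, against 2, 4 and 1 of the 7 kinase genes. Among the 1914 genes with any peak, 34.1% held a shared peak, against 1 of the 4 kinase genes with any. A shared peak is one that overlaps a peak of the other list on the same strand by at least 1 bin of 50 nt. The counts over all genes include genes without RNA in these cells, and with 7 members they are given as a description.

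**Figure D1:**
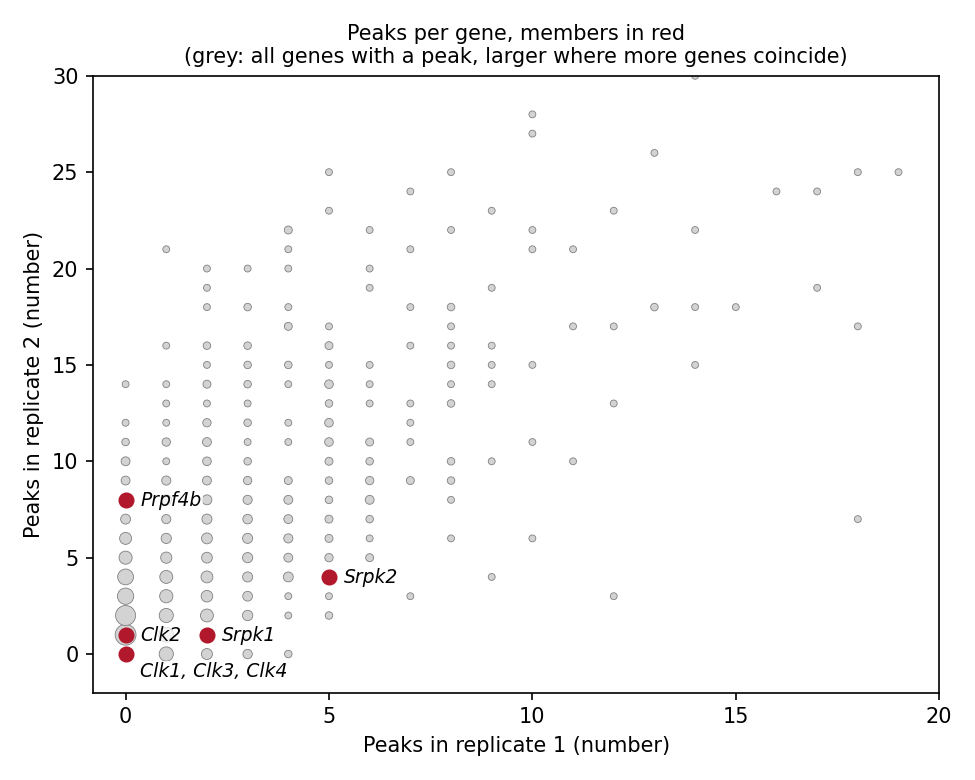
Number of peaks per gene in replicate 1 (horizontal axis) and replicate 2 (vertical axis), with the 7 kinase genes in red and all 1914 genes with a peak in grey (11 genes lie outside the axes). Srpk2 sits at 5 and 4 peaks, Prpf4b at 0 and 8, Srpk1 at 2 and 1, Clk2 at 0 and 1, and Clk1, Clk3 and Clk4 at the origin.

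Each peak carries a number of tags, the authors' signal per 50-nt bin, averaged over bins in longer peaks and not scaled for depth. The lowest listed peak of any gene was at 19 tags in replicate 1 and at 20 in replicate 2, and no bin below that level appears. A gene without a peak is therefore not shown to be without RBM25 or without RNA. The kinase peaks ran from 20 to 48 tags in replicate 1, with a median of 30 against 24 over the list, and from 20 to 57 in replicate 2, with a median of 27.25 against 26. In replicate 1, 4 of the 7 reached the median of the list, all of them in Srpk2. In replicate 2, 9 of the 14 reached it. With only the peaks at or below the median p-value of each list, 4 kinase peaks were left in replicate 1 and 8 in replicate 2. A median splits its list evenly apart from ties, so these counts lie near the share set by construction.

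**Figure D2:**
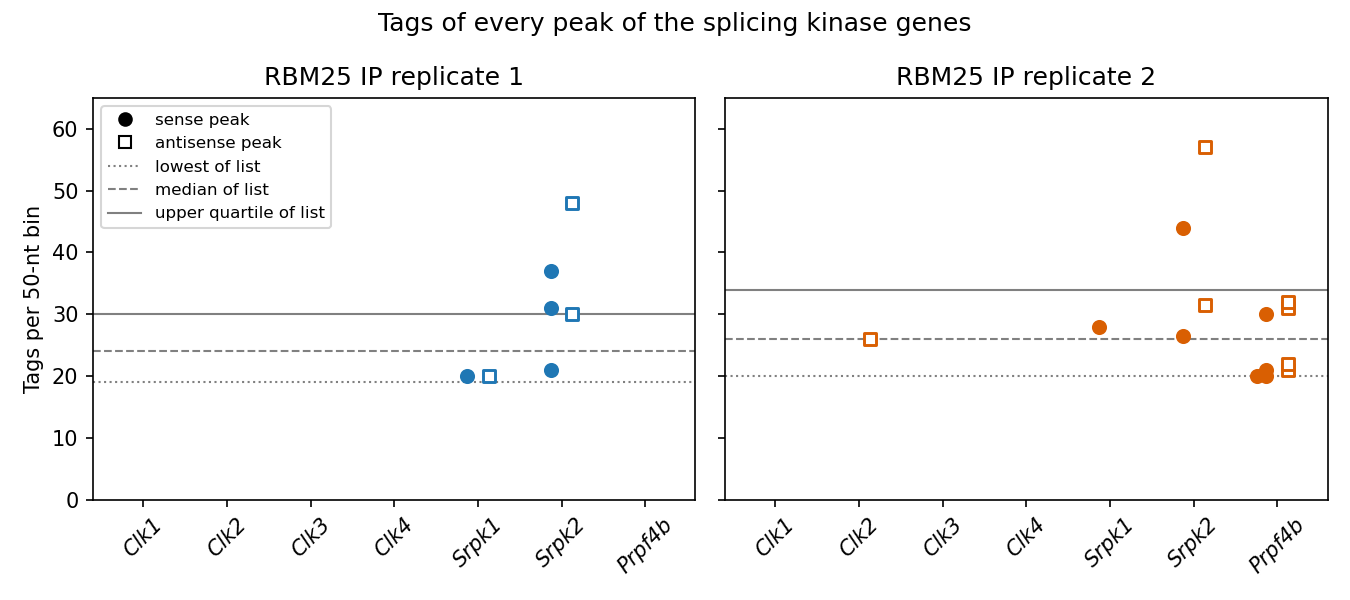
Tags per 50-nt bin of every kinase peak, by gene, in replicate 1 (left) and replicate 2 (right), with filled circles for sense and open squares for antisense peaks and grey lines for the lowest, median and upper quartile of all peaks of that list. Among the kinase peaks, Srpk2 holds the strongest in each replicate, both antisense, with 48 tags in replicate 1 and 57 in replicate 2. Both Srpk1 peaks of replicate 1 lie at 20 tags, just above the lowest peak of the list.

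In the CLK family the 1 peak lay in Clk2. It was antisense to the gene, on the minus strand of chromosome 2 at 174572850 to 174572900 (mRatBN7.2), with 26 tags and a deposited p-value of 9.09e-07. The annotation calls it antisense only and does not place it in an exon or intron. This tag number equals the median of the replicate 2 list. No sense peak lay in its bin, and replicate 1 had no peak there. In RefSeq gene order (assembly GRCr8, used for names and order alone), none of the 8 genes next to a CLK gene had a peak, among them Ppil3 beside Clk1, Scamp3 beside Clk2 and Edc3 beside Clk3. Of the 40 nearest protein-coding genes, 5 on each side of each CLK gene, 0 had a peak in replicate 1 and 3 in replicate 2, namely Fdps near Clk2 and Phykpl and Hnrnpab near Clk4. The replicate 2 count of 3 in 40 stands beside the 7.25% of all protein-coding symbols given above.

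Srpk2, which encodes an SR protein kinase, carried the strongest and the only recurrent kinase peaks. All 5 peaks of replicate 1 and all 4 of replicate 2 fell within 1200 nt of chromosome 4, and 4 of the 5 recurred. Over the whole lists, 61.0% of replicate 1 peaks overlapped a replicate 2 peak and 20.3% of replicate 2 peaks a replicate 1 peak. For the kinase genes together these counts were 4 of 7 and 4 of 14. The number of 5 peaks in replicate 1 was reached or exceeded by 16.4% of the 922 genes with a peak in that list, and the 4 in replicate 2 by 39.9% of 1819.

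The strongest Srpk2 bin lay at chromosome 4, 11635800 to 11635850, with 47 of 50 nt in coding sequence and 3 in intron. On the sense (plus) strand, replicate 1 had 37 tags and replicate 2 had 44, with deposited p-values of 5.22e-09 and 2.55e-10. Its antisense strand reached 48 tags in replicate 1 and 57 in replicate 2. It thus held a peak on both strands in both lists, with the antisense strand higher each time. The antisense peak stood above 94.1% of replicate 1 peaks and 94.3% of replicate 2 peaks in tags, with a tied peak counted as 0.5. Ranked by its strongest shared peak in replicate 1, Srpk2 was among 42 of 652 genes with a shared peak that had 48 tags or more.

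The other recurrent Srpk2 site lay at lower coordinates and wholly in coding sequence. In replicate 1 it was the bin at 11634750 to 11634800, with 31 sense and 30 antisense tags. In replicate 2 it was called over 2 bins, at 11634750 to 11634850, with a mean of 26.5 sense and 31.5 antisense tags. The ratio of replicate 2 to replicate 1 was 0.855 for sense and 1.05 for antisense tags here, with a mean over 2 bins set against 1 bin. At the strongest bin it was 1.19 on each strand, against a median of 1.24 (quartiles 1.04 and 1.52) over all 1645 shared peaks of replicate 1. Replicate 1 had a further sense peak at 11634650 to 11634700, with 21 tags and 32 of 50 nt in coding sequence, which did not recur. The replicate 2 peak began 50 nt beyond its end. When the start and end also had to be identical, 2 of the 4 shared peaks were left, those of the strongest bin.

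**Figure D3:**
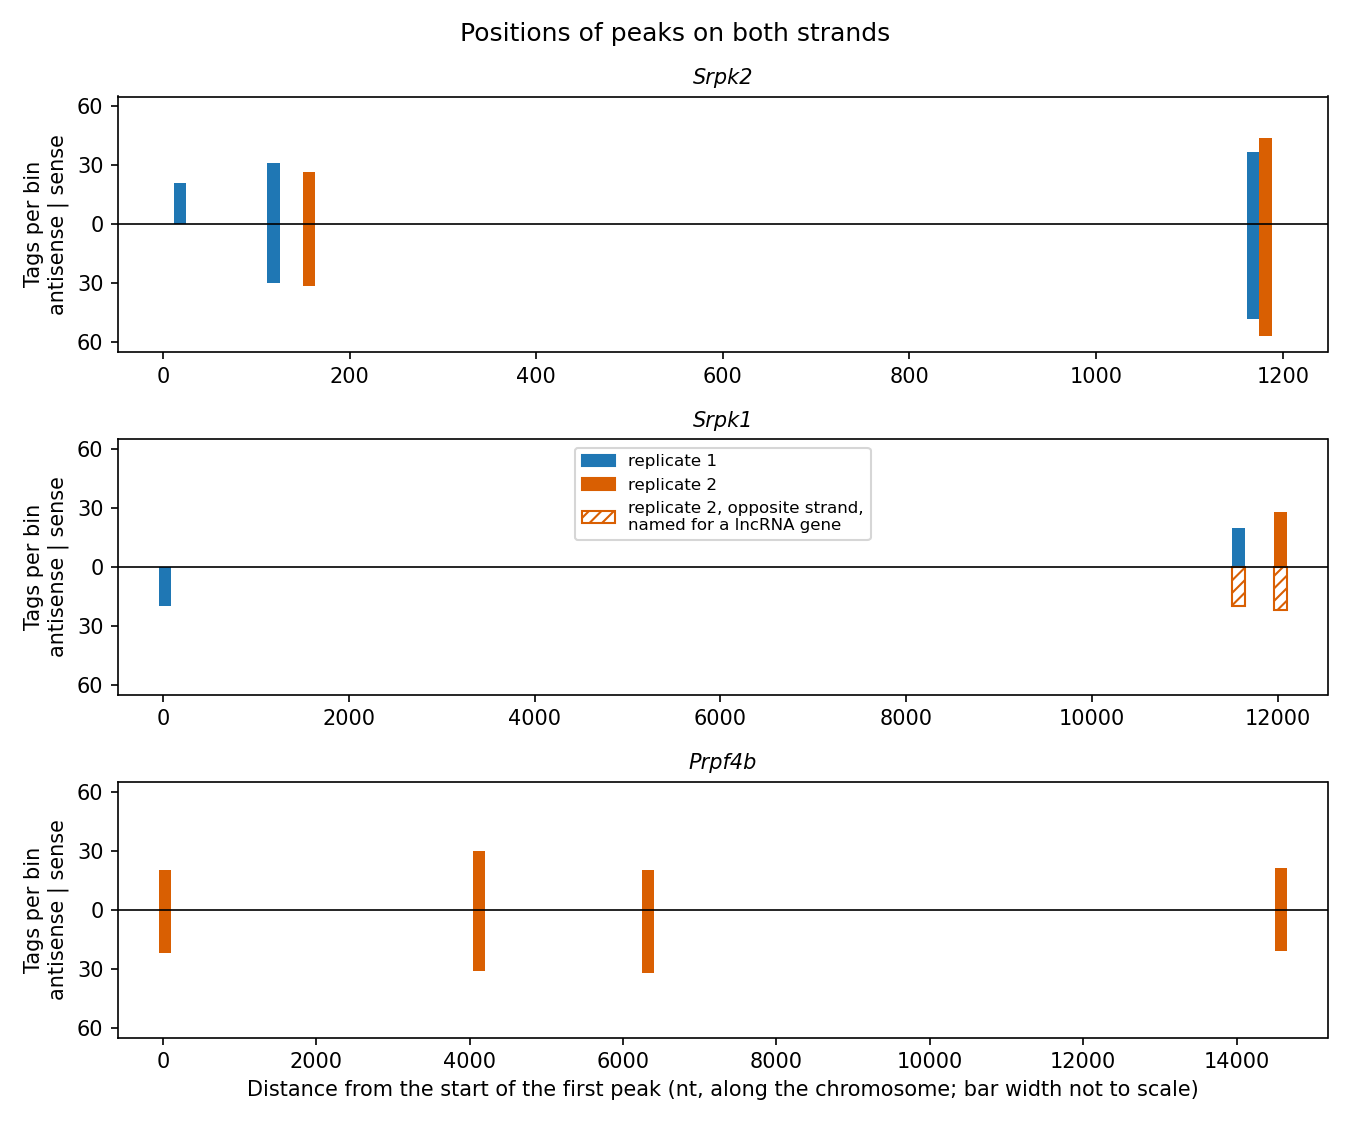
Peaks of Srpk2, Srpk1 and Prpf4b along the chromosome, as distance in nt from the start of the first peak of each gene, with sense tags per bin drawn upward and antisense tags downward (replicate 1 blue, replicate 2 orange; bars of Srpk2 are set side by side; bar width is not to scale). Srpk2 has both strands occupied in both replicates at the right-hand bin, Prpf4b has 4 bins occupied on both strands in replicate 2, and the hatched bars under Srpk1 are replicate 2 peaks named for a lncRNA gene on the opposite strand.

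Srpk1, the other SRPK gene, had peaks in both lists at different positions of chromosome 20. Replicate 1 had an antisense peak at 6670000 to 6670050 and a sense (minus strand) peak at 6681550 to 6681600, each with 20 tags. That sense peak was the only one of the kinase genes with most of its length in intron, 45 of 50 nt, with the other 5 in coding sequence. Replicate 2 had 1 sense peak, 400 nt away at 6682000 to 6682050, with 28 tags, made up of 20 nt of 5' UTR, 13 nt of coding sequence and 17 nt of intron. No Srpk1 peak recurred on its own strand, as in 175 of the 827 genes with a peak in both lists (21.2%).

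Opposite Srpk1, peaks carried the name of another gene. In replicate 2 the plus strand of both of these sense bins held a peak that the annotation gives to the intron of LOC120098971, a lncRNA gene that overlaps the 5' part of Srpk1. These peaks had 20 tags at 6681550 to 6681600 and 22 tags at 6682000 to 6682050. The bin at 6681550 was thus called in both lists, on the minus strand in replicate 1 and on the plus strand in replicate 2. With overlap counted on either strand, 2 kinase genes in place of 1 held a shared peak. These lncRNA peaks were singled out after their values were seen, and are not counted with the 14.

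Prpf4b, which encodes PRP4 kinase, had more peaks in 1 list than any other kinase gene, 8 in replicate 2, and none in replicate 1. They occupied 4 bins over 14600 nt of chromosome 17, each called on both strands. At 30004900 to 30004950, wholly in coding sequence, the sense (minus) strand had 20 tags and the antisense strand 22. At 30009000 to 30009050, with 41 nt of coding sequence and 9 of intron, they had 30 and 31. At 30011200 to 30011250, again wholly coding, they had 20 and 32, the most unequal of the 4 bins. At 30019450 to 30019500, with 41 nt of coding sequence, 8 of intron and 1 of 5' UTR, both strands had 21.

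Of the 8 Prpf4b peaks, 5 had 20 to 22 tags, next to the lowest of the list, and 3, at 30, 31 and 32 tags, lay above its median of 26. Among the 5763 replicate 2 peaks with 20 to 32 tags, the range of Prpf4b, 84.2% had no replicate 1 partner. By number of peaks, 15.1% of the 1819 genes with a replicate 2 peak had as many as Prpf4b or more. Of these 274 genes, 28 had no peak in replicate 1, Prpf4b among them (10.2%), against 54.5% of all genes with a replicate 2 peak. Among the 62 genes with exactly 8 replicate 2 peaks, 12 (19.4%) had none in replicate 1. The depth of the libraries is unknown and the replicate 2 list is longer, so a difference between the replicates at Prpf4b was not tested.

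By location, all sense kinase peaks touched coding sequence, 4 of 4 in replicate 1 and 7 of 7 in replicate 2, against 81.8% and 86.6% of all sense peaks. Boundary peaks, those with exon as well as intron sequence, were 3 of 4 in replicate 1 and 4 of 7 in replicate 2, against 67.8% and 71.2% of all sense peaks. They came from Srpk1, Srpk2 and Prpf4b. No sense kinase peak lay wholly in an intron, 0 of 4 and 0 of 7, where 4.00% of replicate 1 and 5.07% of replicate 2 sense peaks did. None touched a 3' UTR, against 0.917% and 2.03% of all sense peaks. The annotation gives no exon or intron class to antisense peaks, so these counts leave them out. With at least 0.1 of the peak in exon and in intron, the Srpk2 bin with 3 nt of intron no longer counted, and boundary peaks were 2 of 4 and 3 of 7. Exon numbers and splice site positions were not used here.

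Sense peaks made up 4 of the 7 kinase peaks in replicate 1 and 7 of the 14 in replicate 2, against 46.3% and 49.3% of all peaks in genes. A peak on the other strand of the same bin accompanied 2 of 4 sense kinase peaks in replicate 1, both in Srpk2, against 50.5% of all sense peaks. In replicate 2 it accompanied 7 of 7, against 73.5%, with the peak opposite Srpk1 being the one named for LOC120098971. Both Srpk2 sites were shared on both strands, 2 of 4 sense kinase peaks of replicate 1 against 33.1% of all. The shares of the kinase genes rest on few peaks, and no difference from the lists was tested.

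Tags of the 2 strands were compared where a sense peak and a peak annotated as antisense had the same start and end. The gene names of the 2 peaks were not compared, though in the kinase genes both peaks carried the same name. The kinase genes held 8 such pairs, 4 in Srpk2 over both lists and 4 in Prpf4b. The 4 of Srpk2 are 2 sites, each counted in both lists. The antisense strand was higher in 6 pairs, the sense strand in 1 and both were equal in 1, while over all pairs the antisense strand was higher in 54.5% in replicate 1 and 57.6% in replicate 2. The antisense share of tags ran from 49.2% to 61.5%, against a median of 51.1% in each list (538 pairs in replicate 1 and 2492 in replicate 2). At the strongest Srpk2 bin it was 56.5% in replicate 1 and 56.4% in replicate 2, values reached by 15.6% and 11.6% of all pairs. At the Prpf4b bin with 20 and 32 tags it was 61.5%, reached by 2.21% of replicate 2 pairs. A bin enters this comparison only with a peak on each strand, which leaves out bins where a strand fell under the lowest listed tags. Why both strands carried signal was not tested.

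**Figure D4:**
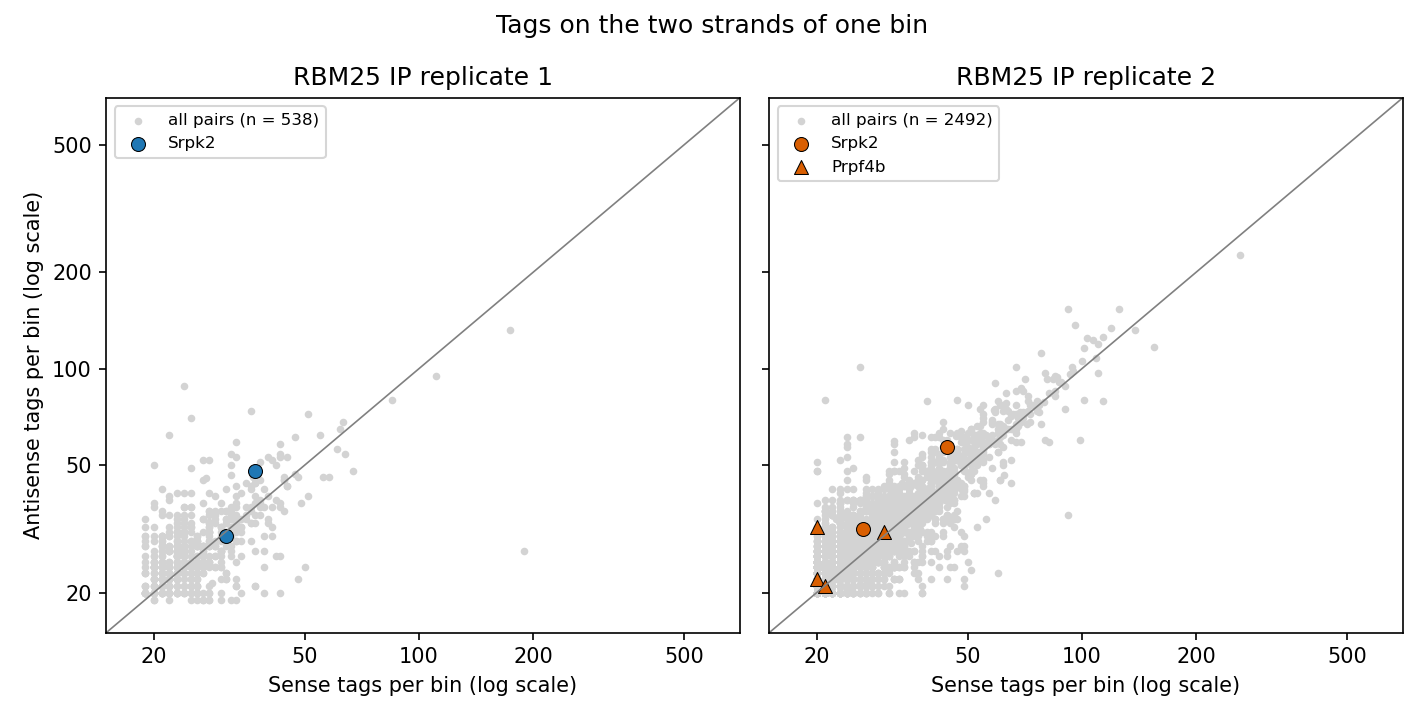
Sense (horizontal) and antisense (vertical) tags per bin, both on log scales, in replicate 1 (left) and replicate 2 (right). Each point is a sense peak and an antisense peak with the same start and end, whichever gene each is named for. All pairs are in grey and the diagonal marks equal tags. The strongest Srpk2 bin lies above the diagonal in both lists, at 37 and 48 tags and at 44 and 57, and the Prpf4b bin at 20 and 32 lies farthest above it among the kinase pairs.

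In peak numbers, 9 named genes were equally close to Srpk2, each 1 peak away. Likeness was the summed difference in 4 counts, sense and antisense peaks in each replicate, over 1767 named genes. No named gene had the same 4 counts. Of the 9, the tie was broken by boundary peaks and then by name, which gave Ptprs, Eya4, Fhod1, Ppp1r12a and Tceal9; each had 2 sense peaks in replicate 1 where Srpk2 had 3. The others, Cdv3, Ilk, Myrf and Rbms3, were as close by the 4 counts.

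Genes for related regulators and for substrates of these kinases were taken from 2 lists. Among 30 related kinases, cyclins, phosphatases and partners, replicate 1 gave a peak to 5 and replicate 2 to 10. A shared peak was found in 5, so 16.7% held one against 14.3% of the 7 kinase genes. Over all protein-coding symbols, 3.68% had a replicate 1 peak, 7.25% a replicate 2 peak and 2.62% a shared one. Among all genes with any peak, 34.1% held a shared one, against 5 of 10 in this list. Cdk11b, which encodes a cyclin-dependent kinase with a role in splicing, had 8 peaks in replicate 1, all of which recurred, and 14 in replicate 2. Ccnl2, the gene of its partner cyclin L2, had 3 and 4 peaks, and all 3 recurred. Their strongest shared peaks had 48 and 40 tags for Cdk11b, on the sense strand, and 40 and 53 for Ccnl2, on the antisense strand. The others with a shared peak were the kinase gene Dyrk2 (25 and 28 tags at its strongest, antisense), Pnisr (22 and 25) and the phosphatase partner gene Ppp1r10 (19 and 26). The catalytic phosphatase genes Ppp1ca, Ppp1cb, Ppp1cc and Ppp2ca had 5, 1, 1 and 2 peaks in replicate 2 and none in replicate 1. Akt1 likewise had 2 peaks in replicate 2 alone. Of all genes with a replicate 2 peak, 54.5% had none in replicate 1. Srpk3, Dyrk1a and Prpf4 had no peak in either list.

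Of 13 genes for SR proteins and the related Tra2 proteins, the substrates of these kinases, 10 had a peak and 6 (46.2%) held a shared one. Over all protein-coding symbols, 7.25% had a replicate 2 peak and 2.62% a shared one. Among all genes with any peak, 34.1% held a shared one, against 6 of these 10. No difference was tested. Those with the most shared peaks were Srsf11 with 6 and Srsf5 with 2, ahead of Srsf1, Srsf4, Srsf6 and Srsf7 with 1 each. Set beside the kinase genes, Srsf11 had 7 and 9 peaks where Srpk2 had 5 and 4.

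Depth could not be read from the lists. Peaks of H9C2, muscle and mesenchymal marker genes were found for 8 of 17, Cald1, Tpm1, Tnnt2, Col1a1, Col3a1, Vim, Acta2 and Tagln. Des, Myog, Myod1, Gata4, Nkx2-5 and Myh6 were among the 9 without one, and 0 of 8 marker genes of other cell types had a peak. Over all protein-coding symbols, 3.68% had a replicate 1 peak and 7.25% a replicate 2 peak. At such shares, 0 of 8 gives no information on cell type. A marker without a peak is not shown to be without RNA.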

How the data were processed

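RBM25 IP and input RNA of H9C2 cells was sequenced as read pairs of 150 nt after micrococcal nuclease digestion and stranded library preparation, per the labels' protocols. Per the submitters' processing notes, HISAT2 and mRatBN7.2 were used. Not given in the sources used here are the peak caller, its thresholds and whether inputs entered the calls. The deposited lists give 1 IP sample each, by their names. The deposited tags are a signal per peak, whole in 51-nt peaks, per the file headers and values. Among these the deposited p-value was fixed by the tags and the strand, in 137 of 137 combinations of replicate 1 and 199 of 199 of replicate 2. The deposited peak length (end minus start plus 1) is another column; in 51-nt peaks location fractions are in steps of 1 in 50, so nt were counted over 50 per bin.

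Peaks were taken by gene name, split by strand from the annotation, and matched between lists by overlap on the same strand. Adjacent bins that touch at an end were not counted as overlapping. With 1 list per IP and no input level, no statistical test was run. Sequences were not used here. All 7 symbols matched the RefSeq name table (GRCr8). The kinase genes and all lists were chosen with earlier results of these data known. Named genes were all 7 kinases, related regulators with a shared peak, up to 3 SR genes by shared peaks, and 5 genes most like the kinase with most peaks; the remaining names were chosen after values were seen. Alternatives covered the p-value, overlap rule, strand, list length, boundary definition and gene name; counting peaks of another gene in the same bins was added after seeing the data. The overlap procedure was tested on simulated data. Python 3.11.15, pandas 2.3.3, numpy 2.4.6, scipy 1.17.1 and matplotlib 3.10.9 were used.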

Additional observations from a re-analysis of the deposited data

How the results depend on the processing

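Of 30 values under alternative settings, 20 stayed within 1.5 times of the reported count, or within its 95% Wilson interval for a share, and 10 did not. Those 10 include the values with 1 list alone. These count genes with any peak and were set against genes with a shared peak, an unlike measure. With the better part of each list by p-value, kinase peaks numbered 4 in replicate 1 and 8 in replicate 2. Boundary peaks were then 1 of 2 sense peaks in replicate 1 and 3 of 3 in replicate 2. Srpk2 was still the gene with shared peaks. Shared replicate 1 peaks numbered 2 with identical ends and 2 with sense peaks alone. With overlap on either strand 2 genes held a shared peak. Among shared peaks alone, boundary peaks were 1 of 2 sense peaks in replicate 1 and 1 of 2 in replicate 2. With 1 list alone, genes with any peak ranged from 2 (without replicate 2) to 4 (without replicate 1). Counting the 2 lncRNA-named peaks opposite Srpk1 gave 16 replicate 2 peaks. With replicate 2 cut to the number of peaks of replicate 1, its lowest peak had 30 tags, and 3 Srpk2 and 3 Prpf4b peaks were left in it. These fewer calls follow from the settings' own construction. Depth is unknown, and a count of peaks can follow it. No paired analysis was possible because the results come from counts within 2 lists and from no test.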

Other observations

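Prpf4b was not alone in having many replicate 2 peaks and none in replicate 1. The 28 genes with 8 or more replicate 2 peaks and no replicate 1 peak also included the RNA helicase genes Ddx5 (10 peaks), Ddx3x (9) and Ddx54 (9), the RNA-binding protein gene Khsrp (10), the splicing regulator gene Sfswap (9) and Sart1 (11), which encodes a protein of the tri-snRNP. These names were chosen after their values were seen and do not stand for the 28. Genes of other roles were among the 28 too, and those with the most peaks were Nedd4 (14) and Myo1c (12). In most of the 28 genes, as in Prpf4b with 4 sense and 4 antisense peaks, both strands were represented. Ddx5 had 4 sense and 6 antisense peaks and Sart1 had 6 and 5. Ndel1 differed, with 8 sense peaks and 0 antisense.

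Tra2b, which encodes an SR-related splicing regulator, had 2 peaks in replicate 1 and 7 in replicate 2 without a shared one, as Srpk1 did with its 2 and 1. Its highest peak in replicate 1 had 62 tags. In replicate 2 its highest, which did not overlap that peak on the same strand, had 52.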
